A study of Mus musculus with 12 samples.

Results

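The 10 genes described here code for fibulins and the other main proteins of elastic fibres: Fbln1, Fbln2, Fbln5, Efemp1, Efemp2, Eln, Fbn1, Fbn2, Mfap5 and Lox. They were selected by gene symbol from the 55573 genes in each table, and they were chosen on the measured levels of these same libraries: the differences of Fbln1 and Fbln2 between Fadd/Mlkl knockout cells with and without Fadd were known when the set was named. For that reason no p-value is given for any of the 10 genes wherever Fadd line libraries enter a comparison, and the number of them called there is a description beside the share of all genes called, from which nothing is read.

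Elastic fibres give stretch to arteries, lung and skin. Fibrillins assemble into microfibrils, tropoelastin is laid down on them, and lysyl oxidase joins the elastin chains by oxidising their lysines. Fibulins are secreted calcium-binding glycoproteins that sit between these parts, and fibroblasts are among the cells that make all of them in connective tissue.

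The cells were embryonic fibroblasts of mice, made immortal by infection with SV40 large T, and formed 4 groups of 3 libraries. Fadd -/-, Mlkl -/- cells (the Fadd line) carried an empty vector or had Fadd put back, and Casp8 -/-, Mlkl -/- cells (the Casp8 line) carried an empty vector or had Casp8 put back. FADD is the adaptor that recruits caspase-8 to death receptors, and MLKL is the protein that breaks the membrane in necroptosis, so all 4 groups lack the necroptosis executioner. All cells were untreated and were collected 24 h after plating, and the labels describe 3 independent cultures of each. The labels name no second clone of either line, so a difference between the lines cannot be told apart from a difference between the cells they came from. Total RNA was sequenced, and levels are given in TPM, transcript abundance scaled for depth and transcript length.

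Library totals ran between 33918359 and 59388559 estimated counts. Fadd lay between 0.01 and 0.02 TPM in the Fadd/Mlkl knockout libraries and between 3.05 and 4.24 TPM once put back. Casp8 lay between 3.11 and 3.51 TPM in the Casp8/Mlkl knockout libraries and between 28.62 and 76.48 TPM once put back, so transcripts of the disrupted gene were still counted. One library stood apart for the genes described here: replicate 1 of the Casp8/Mlkl knockout had the lowest level of its group for 10 of the 10 genes, against 45.1% of all genes tested. Fibroblast markers (10 genes) summed to between 1150 and 3760 TPM in the 12 libraries, with Thy1 at 0 counts in every group but the Casp8/Mlkl knockout. The sum hides single markers: in the Fadd/Mlkl knockout most of it was S100a4 (mean 832 TPM) and Vim (489). Col1a2 averaged 0.143 TPM there, against 33.0 with Fadd put back, 584 in the Casp8/Mlkl knockout and 567 with Casp8 put back. Pdgfra averaged 1.02, 3.16, 4.91 and 4.81 TPM in the same order. Of these 10 fibroblast markers, only Pdgfrb had a higher mean TPM in the Fadd/Mlkl knockout than with Fadd put back. Summed markers of chondrocytes, epithelium, endothelium, leukocytes and neural cells reached at most 3.4, 15.8, 0.15, 2.12 and 53.8 TPM.

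The upstream sequences of Fbln1 and Efemp2 are shown because Fbln1 was far lower in cells without Fadd, while Efemp2 was well expressed in all 12 libraries with a difference near its standard error. Each run is the 250 bases before the gene's first RefSeq start site, 5′ to 3′ on the plus strand, which is the strand of both genes (RefSeq, GRCm38.p6), and capitals mark CpG. The Fbln1 window is chr15:85205699-85205948 and the Efemp2 window is chr19:5473696-5473945, and neither overlaps an exon of the GENCODE annotation.
Fbln1: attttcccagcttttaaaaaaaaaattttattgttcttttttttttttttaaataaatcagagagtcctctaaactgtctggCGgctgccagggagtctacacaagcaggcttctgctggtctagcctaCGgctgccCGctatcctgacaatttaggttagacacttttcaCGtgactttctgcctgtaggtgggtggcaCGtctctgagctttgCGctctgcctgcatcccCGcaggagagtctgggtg
Efemp2: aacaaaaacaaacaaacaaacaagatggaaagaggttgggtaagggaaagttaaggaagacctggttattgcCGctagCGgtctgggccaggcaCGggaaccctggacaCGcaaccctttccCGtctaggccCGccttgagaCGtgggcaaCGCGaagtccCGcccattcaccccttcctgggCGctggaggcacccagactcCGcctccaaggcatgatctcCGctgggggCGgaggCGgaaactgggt
The Fbln1 window holds 7 CpG and the Efemp2 window 15, against a median of 6 in 32841 mouse windows of the same length, of which 46.3% and 27.3% hold at least as many. Both strands were searched for the TATA box, spelled TATAAA, which 12.4% of all windows hold. The letters of the CCAAT box are in 33.9% of windows. A GC box, spelled GGGCGG, is in 32.7% of them, and the AP-1 motif, spelled TGANTCA, in 6.75%. The Efemp2 window shown has 2 GC box matches and the Fbln1 window shown has a match to none of the 4 motifs. Windows before later RefSeq start sites of both genes overlap exons and differ from those shown. The later Fbln1 window, chr15:85205758-85206007, has 14 CpG and 1 GC box match. The later Efemp2 windows have 27 and 33 CpG, with 5 GC box matches in each. These matches describe letters and not bound sites.

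In normalised counts of the Fadd line, 5 of the 10 genes were lower in every Fadd/Mlkl knockout library than in every library with Fadd put back: Fbln1, Fbln2, Efemp1, Fbn1 and Lox. None was higher without overlap. Of all genes tested, 8.74% were lower and 7.79% higher without overlap. Of the genes with more than a few reads, Fbln2 and Fbln1 differed most, Efemp1 resting on 1 count in the knockout, and the differences of Fbln5 and Efemp2 were about the size of their SE (standard error) or smaller. In the edgeR fit over all 16396 genes tested, 2 of the 10, Fbln1 and Fbln2, passed the 0.05 threshold on the adjusted p (called below) and were lower, and 1.24% of all genes were called lower. With the replicate number as a block 3 were called, Efemp1 being added, beside 338 of 16396 genes called lower. Since the set was named with results of these libraries known, nothing is read from these counts. In bulk RNA, fewer cells expressing a gene and less RNA per cell cannot be told apart.

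Fbln2, whose product fibulin 2 lies in basement membranes and vessel walls (ENSMUSG00000064080.12, chromosome 6, 91212455 to 91272540 in GRCm38, as for all genes here), was close to absent without Fadd. It had 1, 0 and 4 estimated counts in the Fadd/Mlkl knockout libraries, against 1211, 1576 and 2515 in those with Fadd put back. In TPM the knockout libraries had 0.02, 0.00 and 0.01, against 4.01, 6.29 and 8.72 with Fadd put back. The groups did not overlap, and the fitted log2 change was -10.15 (SE 1.06, n = 3 each), a value that rests on 5 counts in the knockout.

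Fbln1, which codes for a fibulin of basement membranes and elastic fibres (ENSMUSG00000006369.14, chromosome 15, 85205949 to 85286535), had 0.05, 0.20 and 0.09 TPM in the Fadd/Mlkl knockout libraries, against 3.40, 3.89 and 3.45 TPM with Fadd put back. The libraries with Fadd put back were close to each other, and every knockout library lay far below them. The log2 change was -4.92 (SE 0.647), a fold of 0.0329. Within pairs of the same replicate number the log2 ratio was -5.92, -4.33 and -5.06.

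The other fibulins showed smaller or less even differences. Fbln5, whose product binds tropoelastin and is needed for elastic fibres in mice (chromosome 12, 101746565 to 101819055), had 4.18, 17.90 and 5.98 TPM in the Fadd/Mlkl knockout, against 4.81, 17.06 and 13.43 TPM with Fadd put back. Its replicate 2 libraries were high in both groups, the groups overlapped, and the log2 change was -0.26 (SE 0.752), which ran from -1.045 to 0.08506 when single libraries were left out. Efemp2, which codes for fibulin 4, a partner of lysyl oxidase in elastin assembly (chromosome 19, 5473954 to 5482517), had 59.22, 56.49 and 49.91 TPM in the knockout, against 76.28, 70.35 and 64.52 TPM with Fadd put back. Those TPM values do not overlap, but the normalised counts did, with a log2 change of -0.24 (SE 0.216). Efemp1, which codes for fibulin 3 (chromosome 11, 28853204 to 28926743), had 0, 1 and 0 counts in the knockout, against 2, 25 and 37 with Fadd put back. The ratio of the depth-scaled sums was 0.0133, with a 95% counting interval from 0.000332 to 0.077, and it rests on very few reads.

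Elastin itself was barely detected in this line. Eln, which codes for tropoelastin (chromosome 5, 134702593 to 134747323), had 1, 3 and 0 counts in the Fadd/Mlkl knockout, against 2, 2 and 0 counts with Fadd put back, and a difference was not detectable at this depth. Mfap5, which codes for a microfibril-associated glycoprotein (chromosome 6, 122505845 to 122529290), had 0 counts in all 3 knockout libraries, against 1, 0 and 1 with Fadd put back.

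The fibrillins were measured well. Fbn1, which codes for fibrillin 1, the main microfibril protein and the gene mutated in Marfan syndrome in humans (chromosome 2, 125300594 to 125507993), had 1.00, 2.39 and 2.38 TPM in the Fadd/Mlkl knockout, against 4.03, 4.74 and 4.06 TPM with Fadd put back. All knockout libraries were lower, with a log2 change of -1.12 (SE 0.415). Fbn2, which codes for fibrillin 2, a fibrillin best known from development (chromosome 18, 58008623 to 58210487), had 0.67, 1.40 and 0.31 TPM in the knockout, against 4.30, 1.63 and 0.82 TPM with Fadd put back. It was lower in 3 of 3 pairs of the same replicate number, but the groups overlapped and the log2 change of -1.33 had an SE of 1.06. Lox, which codes for lysyl oxidase, the enzyme that starts the crosslinks of elastin and collagen (chromosome 18, 52516067 to 52529867), had 6.02, 6.08 and 3.34 TPM in the knockout, against 23.36, 20.38 and 17.29 TPM with Fadd put back. Its groups lay well apart, with a log2 change of -1.86 (SE 0.582).

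**Figure D1:**
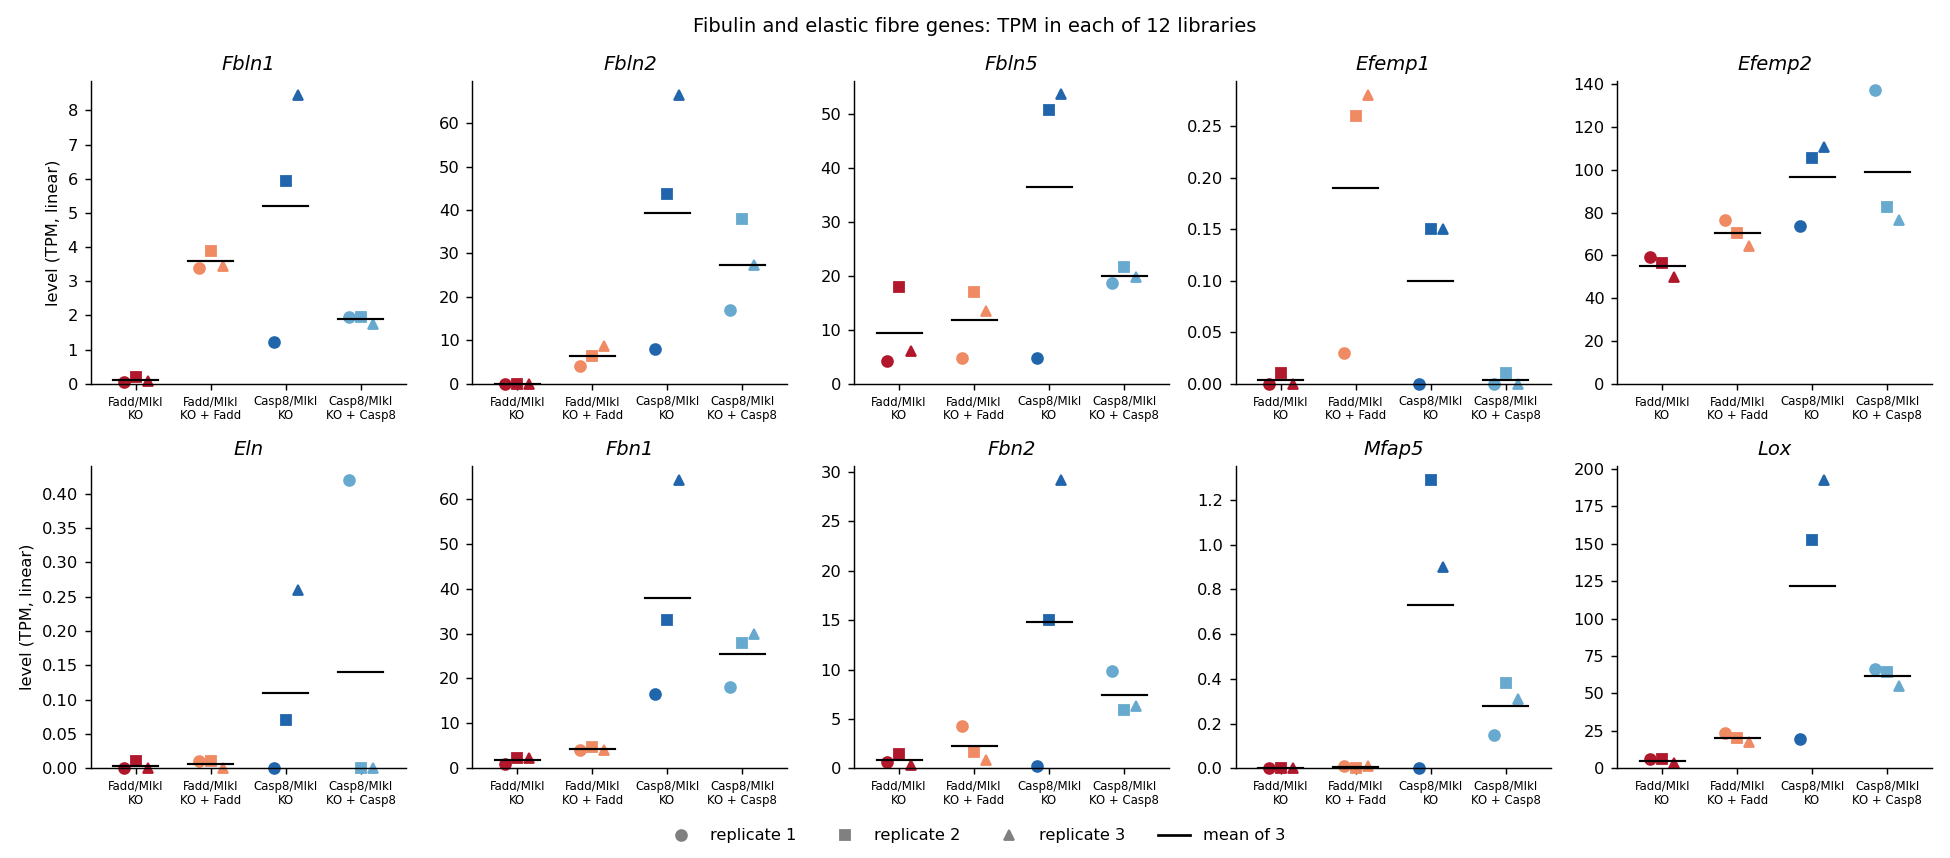
TPM of each of the 10 genes (y axis, linear, a separate scale per gene) in the 12 libraries, by group on the x axis, with the replicate number as the symbol and the mean of 3 as a line. Fbln1 and Fbln2 sit at or near 0 in the Fadd/Mlkl knockout, and replicate 1 of the Casp8/Mlkl knockout is the lowest of its group in every panel.

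In the Fadd line the summed smooth muscle, fibroblast and epithelial lists were lower in the knockout without overlap, while the other marker lists overlapped. The neural list summed to 15.4 to 24.6 TPM in the Fadd/Mlkl knockout, against 14.3 to 23.6 TPM with Fadd put back. For the leukocyte list the sums were 0.83 to 1.86 and 1.13 to 2.12 TPM. The smooth muscle list (5 genes) summed to 1.0 to 6.75 TPM in the Fadd/Mlkl knockout, against 7.96 to 35.7 TPM with Fadd put back. The fibroblast list summed to 1150 to 1650 TPM in the knockout, against 1730 to 1890 TPM with Fadd put back. The epithelial list (5 genes) summed to 0.38 to 2.05 TPM in the knockout, against 2.68 to 15.8 TPM with Fadd put back. Most of it was Krt19, with means of 1.43 and 8.33 TPM, and Krt18 had 0 counts in both groups. In the smooth muscle, fibroblast and epithelial lists, only Des (0.39 against 0.31) and Pdgfrb (13.9 against 11.1) had a higher mean TPM in the knockout. In normalised counts S100a4 was higher there too, at a mean of 439 against 402 CPM. The part of these lists in the lower fibulin levels was not tested.

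In the Casp8 line, no gene of the 10 was called in either direction, where 0.0061% of all genes were called. The Fbln1, Fbln2, Fbln5, Fbn1, Fbn2, Mfap5 and Lox levels of replicates 2 and 3 of the Casp8/Mlkl knockout lay above every library with Casp8 put back, while replicate 1 lay below. At an unadjusted p under 0.05, edgeR passed 2 of the 10, Fbln1 and Efemp1, both with a higher mean in the knockout. The unadjusted count over all genes was 930 of 16396. On the adjusted p, DESeq2 and limma-voom called 0 of the 10, beside 143 and 1 of 16396 genes. The median log2 change of the 10 genes was 0.91, against 0.0079 over all genes tested.

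Among the fibulins, Fbln1 had 1.22, 5.94 and 8.44 TPM in the Casp8/Mlkl knockout, against 1.94, 1.95 and 1.76 TPM with Casp8 put back. Its log2 change was 1.42 (SE 0.546, adjusted p = 0.762 by edgeR's quasi-likelihood test). Fbln2 had 7.92, 43.78 and 66.37 TPM in the knockout, against 16.89, 37.85 and 27.40 TPM with Casp8 put back. That gene was therefore well expressed in both groups of this line, with a log2 change of 0.44 (SE 0.616, adjusted p = 0.999 by edgeR). Fbln5 had 4.85, 50.75 and 53.68 TPM in the knockout, against 18.72, 21.60 and 19.81 TPM with Casp8 put back (log2 0.86, SE 0.755, adjusted p = 0.986 by edgeR). Efemp2 had 73.48, 105.40 and 110.47 TPM in the knockout, against 137.07, 82.45 and 76.63 TPM with Casp8 put back, and here replicate 1 with Casp8 put back was the highest of all. Its log2 change was 1.87e-05 (SE 0.216, adjusted p = 1 by edgeR). Efemp1 had 0, 21 and 10 counts in the knockout, against 0, 1 and 0 with Casp8 put back (edgeR adjusted p = 0.681).

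Among the elastin, microfibril and crosslinking genes, knockout replicate 1 again had the lowest value each time. Eln had 0, 18 and 43 counts in the Casp8/Mlkl knockout, against 114, 1 and 0 counts with Casp8 put back, so a single library in each group held most of its reads (log2 -0.43, SE 1.59, edgeR adjusted p = 0.999). Fbn1 had 16.62, 33.08 and 64.23 TPM in the knockout, against 18.10, 27.93 and 29.98 TPM with Casp8 put back (log2 0.55, SE 0.41, edgeR adjusted p = 0.965). Fbn2 had 0.21, 15.04 and 29.20 TPM in the knockout, against 9.86, 5.93 and 6.33 TPM with Casp8 put back (log2 1.00, SE 1.05, edgeR adjusted p = 0.999). Knockout replicate 1 of Fbn2 held 0.00949 of the mean of the other two. Mfap5 had 0, 1.29 and 0.90 TPM in the knockout, against 0.15, 0.38 and 0.31 TPM with Casp8 put back (log2 1.64, SE 1.16, edgeR adjusted p = 0.956). Lox had 19.64, 152.26 and 192.71 TPM in the knockout, against 65.99, 64.22 and 55.03 TPM with Casp8 put back. Its log2 change was 0.95 (SE 0.567, edgeR adjusted p = 0.951).

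Read by pairs of the same replicate number, 9 of the 10 genes were lower in the Casp8/Mlkl knockout in pair 1 and higher in pairs 2 and 3. That order of signs was found in 26.8% of all genes tested. Lox had log2 ratios of -1.68, 1.32 and 1.65, Fbn2 of -5.18, 1.46 and 2.07, and Fbln5 of -1.84, 1.33 and 1.30. Smooth muscle markers summed to 229.8, 729.4 and 790.5 TPM in the knockout, against 87.83, 1070 and 654.7 TPM with Casp8 put back. Replicate 1 was thus low for that list in both groups, and its part in these values was not tested. With both replicate 1 libraries of the line left out, an alternative added after seeing the data, still 0 of the 10 genes were called, with log2 changes of 1.48 for Lox (edgeR adjusted p = 0.0617) and 1.88 for Fbln1 (edgeR adjusted p = 0.08).

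**Figure D2:**
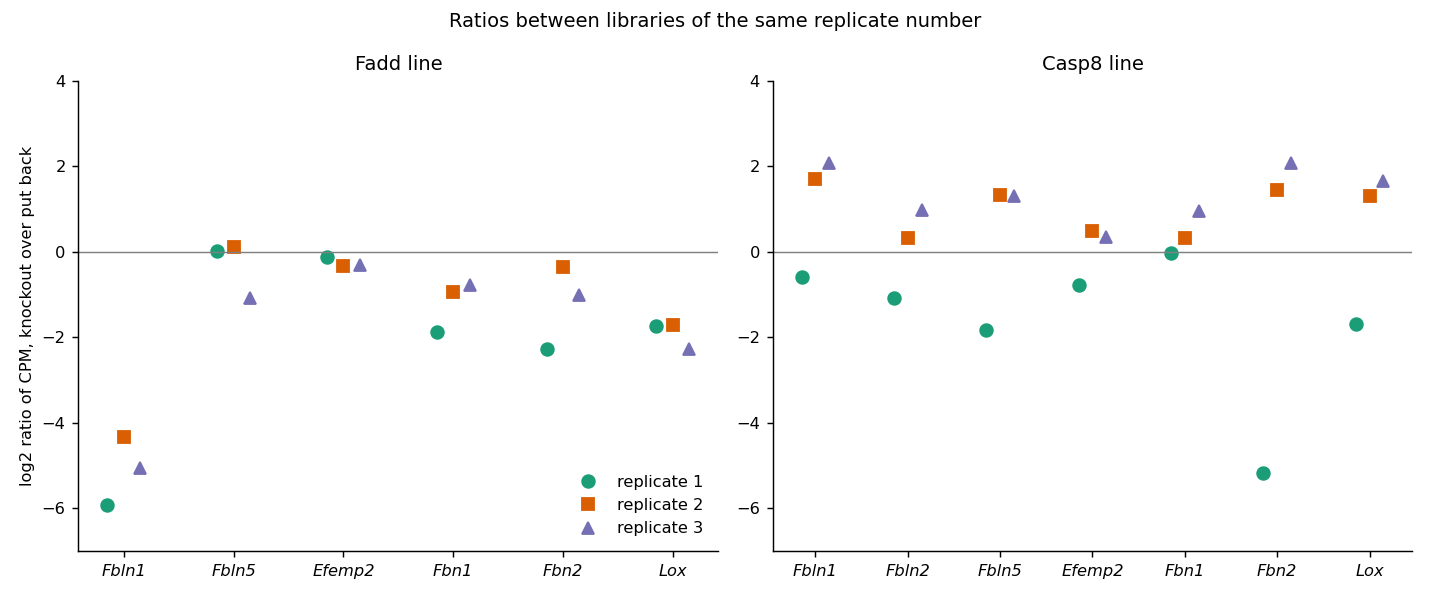
Log2 ratio of normalised counts (CPM), knockout over put back (y axis), in each pair of libraries that share a replicate number, for the genes with counts in every library of the panel (x axis). Fbln1, Efemp2, Fbn1, Fbn2 and Lox are below 0 in all pairs of the Fadd line, whereas in the Casp8 line pair 1 is below 0 and pairs 2 and 3 are above 0 for all 7 genes shown.

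**Figure D3:**
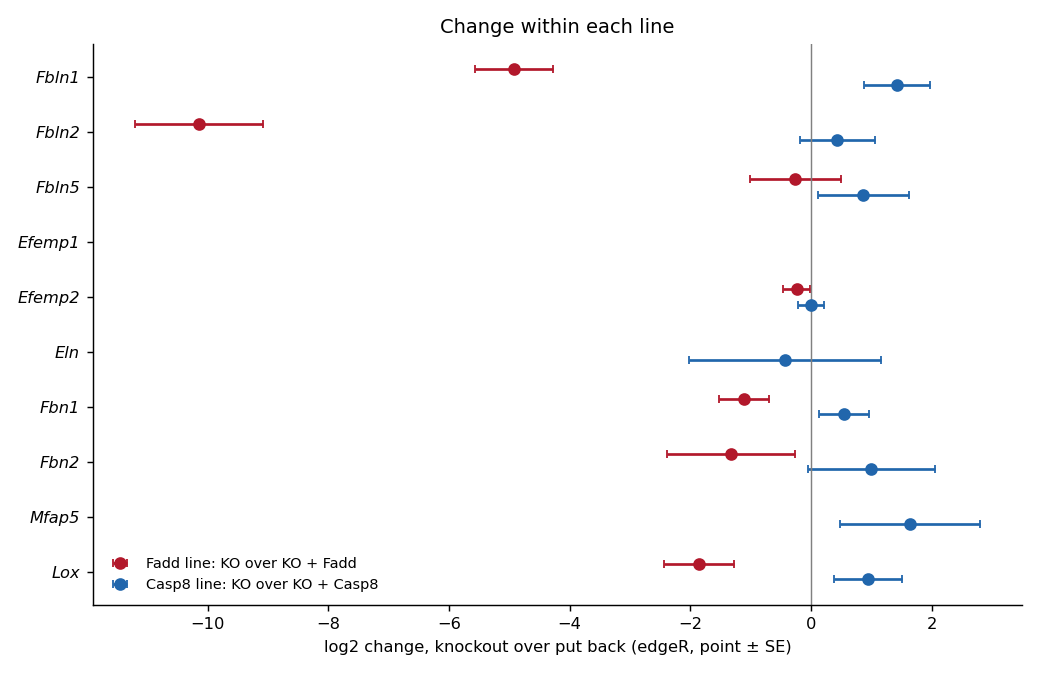
Fitted log2 change of each gene, knockout over put back (x axis, point ± SE), in the Fadd line and the Casp8 line, with changes that rest on under 5 counts in a group left out. Fbln1 at -4.92 and Fbln2 at -10.15 stand out to the left in the Fadd line, and the Casp8 line points lie between -0.43 and 1.64.

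The knockouts of both lines lay apart, without overlap, for 5 of the 10 genes, where 14.8% of all genes were lower and 13% higher without overlap. Fbln1, Fbln2, Fbn1 and Lox were lower in every Fadd/Mlkl knockout library than in every Casp8/Mlkl knockout library, and so was Efemp2. The log2 differences were -5.38 (SE 0.659) for Fbln1, -12.69 (SE 1.11) for Fbln2, -4.19 (SE 0.466) for Fbn1, -4.34 (SE 0.646) for Lox and -0.63 (SE 0.217) for Efemp2. Mfap5 had 0 counts in the Fadd/Mlkl knockout against 160 in the Casp8/Mlkl knockout. With 3 counts over the group taken as the floor, its depth-scaled sum was at least 69.4-fold lower. All of the 160 came from replicates 2 and 3. Replicate 1 of the Casp8/Mlkl knockout had 0 too, so the groups overlapped for Mfap5. In all, 5 of the 10 were called lower, where 7.01% of all genes were called lower; as the Fadd/Mlkl knockout libraries served to choose the set, nothing is read from this count. Without replicate 1 of the Casp8/Mlkl knockout 9 were called lower, beside 1776 of 16956 genes. The call of Mfap5 was lost when any 1 of the other 5 libraries was left out, which gave 4, beside 653 to 791 genes called lower. The replicate block, here with each number shared by both lines, gave 6, with Efemp1 added, beside 1332 of 16396 genes called lower. Deviations of same-numbered knockout libraries from their group means had correlations of -0.252, 0.0711 and -0.371 between the lines. Smooth muscle markers summed to 1.0 to 6.75 TPM in the Fadd/Mlkl knockout, against 230 to 790 TPM in the Casp8/Mlkl knockout, and their part in this difference was not tested.

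With the missing gene put back, the lines still differed. Fbn1 was lower with Fadd put back than with Casp8 put back (log2 -2.53, SE 0.433), and it was the 1 gene of the 10 called, where 3.4% of all genes were called lower; nothing is read from that count either. The groups did not overlap for 9 of the 10, 7 lower and 2 higher, where 14.4% of all genes were lower and 12.5% higher without overlap. Fbln2 (log2 -2.10), Fbn2 (-1.70), Lox (-1.53), Fbln5 (-0.69), Efemp2 (-0.39) and Mfap5, with 2 counts against 67, were lower in the Fadd line, while Fbln1 (0.96) and Efemp1, with 64 counts against 1, were higher in it. Fitted with the replicate number as a block shared by both lines, 3 were called: Fbln2 and Fbn1 lower and Efemp1 higher. That fit called 773 of 16396 genes lower and 763 higher. Leaving out replicate 1 with Fadd put back or replicate 1 with Casp8 put back gave 2 called in each case. Beside them 470 of 16829 and 2251 of 16907 genes were called.

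Taken as levels in TPM, the make-up of the set differed by group. Efemp2 came first in 3 groups, with 55.2 ± 4.79 TPM in the Fadd/Mlkl knockout, 70.4 ± 5.88 with Fadd put back and 98.7 ± 33.3 with Casp8 put back (SD, n = 3). In the Casp8/Mlkl knockout Lox averaged 122 ± 90.5 TPM and Efemp2 96.4 ± 20.1 TPM, a difference within their spread. Efemp2 took 76.9 ± 8.76% of the summed TPM of the 10 genes in the Fadd/Mlkl knockout, 59.1 ± 3.81% with Fadd put back, 35.4 ± 20.9% in the Casp8/Mlkl knockout and 40.1 ± 9.42% with Casp8 put back. The lower share went with more Lox, which took 7.01%, 17.0%, 29.9% and 25.5% in the same order of groups. At the other end Efemp1, Eln and Mfap5 were at or below 1.29 TPM in every library. The order of Fbln2, Fbn1 and Fbln5 in the Casp8/Mlkl knockout, at 39.4 ± 29.5, 38.0 ± 24.2 and 36.4 ± 27.4 TPM, cannot be told from their spread.

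By the root mean square difference of centred log2 CPM over the 12 libraries, the pair among the 10 with the most similar pattern was Fbn1 and Lox, at 0.735, followed by Mfap5 and Lox, at 0.948. Fbln1 and Fbln2, both low without Fadd, were 2.83 apart. The genes nearest to Fbln2 among 13020 were Zfp422 (1.04), Nid1 (1.05) and Gas6 (1.12), against a median of 4.7, and those nearest to Fbln1 were Adgrg2 (0.652), Rab27a (0.659) and Pid1 (0.678), against a median of 2.19. Nid1, which codes for the basement membrane linker nidogen, averaged 0.00667 TPM in the Fadd/Mlkl knockout, 2.53 with Fadd put back, 22.8 in the Casp8/Mlkl knockout and 10.8 with Casp8 put back.

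The rest of the elastic fibre genes were read from a list of 61 that holds none of the 10, of which 53 were tested. In the Fadd line edgeR called 2 lower and 0 higher, where 1.24% of all genes were called lower. At an unadjusted p under 0.05, 6 of the 53 passed, against 1682 of the 16396 genes tested, which is about the same share. The median log2 change was -0.23, against 0.0038 over all genes tested. Emilin2, which codes for a glycoprotein at the surface between elastin and microfibrils, had 18, 12 and 13 counts in the Fadd/Mlkl knockout, against 420, 287 and 427 with Fadd put back (log2 -4.93, SE 0.379, edgeR adjusted p = 8.7e-05). Loxl2, a relative of lysyl oxidase that crosslinks collagen and elastin, had 0.03, 0.12 and 0.08 TPM in the knockout, against 39.62, 12.22 and 3.00 TPM with Fadd put back. Loxl2 thus varied widely among the libraries with Fadd put back, and its call (log2 -7.69, SE 1.22, edgeR adjusted p = 0.00907) was lost when any 1 of the 3 knockout libraries was left out. With the replicate number as a block 5 were called, beside 444 of 16396 genes. They were the same 2 with Loxl1, Timp1 and Vcan, which are named after their values were seen.

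In the groups of the list with no call, the gene with the highest mean level is given. Ltbp1, a latent TGF-beta binding protein of microfibrils, had a log2 change of -0.30 in the Fadd line (SE 0.405, edgeR adjusted p = 0.979). Tgfb3, a TGF-beta ligand, had one of -0.61 (SE 0.603, adjusted p = 0.936), and Fn1, the fibronectin on which fibrillin is laid down, by -0.74 (SE 0.487, adjusted p = 0.775). The receptor subunit gene Itgb1 had a log2 change of -0.03 (SE 0.222, adjusted p = 1) and the cathepsin gene Ctsl by 0.36 (SE 0.225, adjusted p = 0.741), all by edgeR. None of these 5 passed the test.

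In the Casp8 line edgeR called 0 of the 53, and 2 passed at an unadjusted p under 0.05, against 930 of 16396 genes. On the adjusted p, DESeq2 and limma-voom also called 0 of the 53, beside 143 and 1 of 16396 genes. The median log2 change was 0.17, against 0.0079 over all genes tested. Emilin2 had a log2 change of -0.16 (SE 0.309, edgeR adjusted p = 0.999) and Loxl2 of 0.70 (SE 0.896, edgeR adjusted p = 0.999). Without both replicate 1 libraries 2 genes were called, Mfap2 and Bgn, named after their values were seen, beside 111 of 16864 genes.

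**Figure D4:**
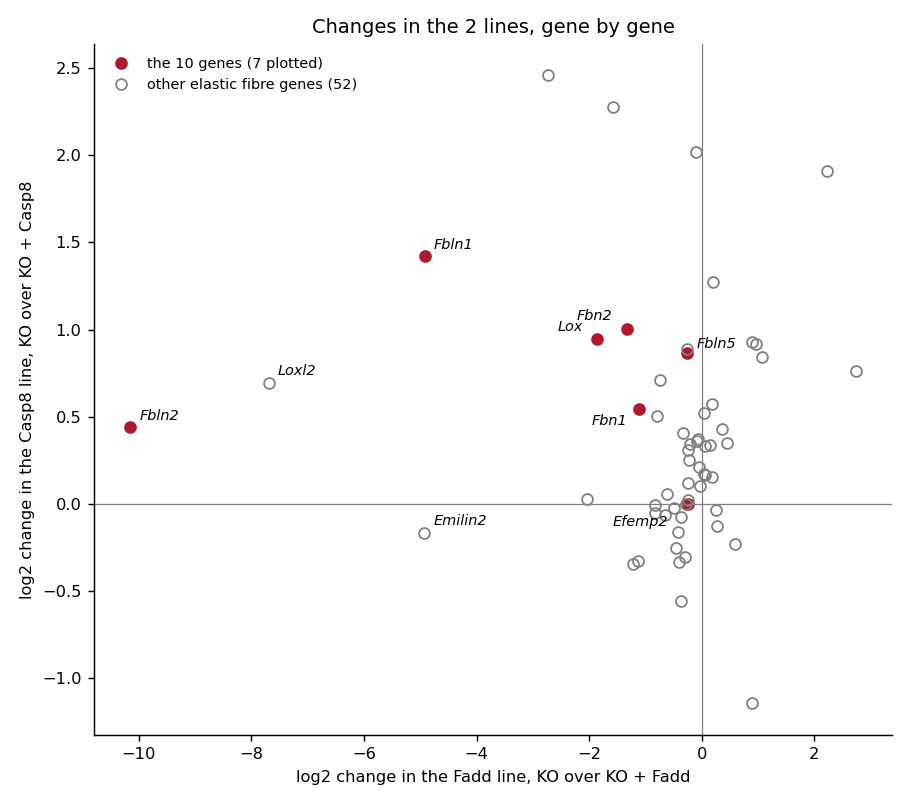
Log2 change in the Fadd line (x axis) against that in the Casp8 line (y axis), each knockout over put back, for 7 of the 10 genes and 52 other elastic fibre genes with at least 5 counts in every group. Fbln2, Loxl2, Fbln1 and Emilin2 lie to the left, from -10.15 to -4.92 in the Fadd line, and between -0.16 and 1.42 in the Casp8 line.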

How the data were processed

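Stranded libraries of total RNA were sequenced as read pairs, per the labels' protocols. Per the same protocols the authors trimmed with Cutadapt, aligned to mm10 (GENCODE M22) with STAR and obtained the estimated counts per gene with RSEM. STAR 2.7.5a and Trim Galore 0.5.0 are versions from the submitters' processing notes. The tables deposited by the authors hold each expected count and TPM value per gene. Rows of 92 spike-ins, with 0 counts, were left out.

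Expected counts were rounded and fitted with edgeR 4.0.16 in R 4.3.3 (quasi-likelihood, TMM, filterByExpr with a minimum count of 10, 1 mean per group over 12 libraries, common biological coefficient of variation 0.37). P-values were adjusted by Benjamini-Hochberg over 16396 genes. DESeq2 1.42.0, limma 3.58.1 (voom, and log2(TPM + 1)), other scaling, no filter, a replicate block and leaving out each library were alternatives. Only the edgeR fit of the Fadd line comparison was tried on simulated counts, which had less spread than these libraries and no replicate effect. The alternatives were not tried in that way. Levels come from the deposited TPM. Gene coordinates are from GENCODE M21, whose identifiers matched all 10 genes; the M22 coordinates were not used here. Counting intervals cover counting error only.

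The members and lists were chosen with earlier results of these data known. The genes named are all 10 members, Fadd and Casp8, up to 3 called genes per role group of the other list or else its highest by mean TPM, and the 3 nearest genes of Fbln1 and Fbln2. Libraries of the same replicate number deviated together within a line. The correlations of deviations were 0.66, 0.391 and 0.639 for Fadd line pairs and 0.203, 0.305 and 0.127 for Casp8 line pairs. Between the lines they were 0.317, 0.161 and 0.243 with the gene put back, and -0.252, 0.0711 and -0.371 for the knockouts. The numbers were read as pairs only in the ratios and signs by pair and in the replicate block. That block had separate effects for each line in comparisons within a line, and shared effects in comparisons between lines. The main fit, which gave the log2 changes, SE and adjusted p-values, left the pairing out. What the numbers mark is not stated in the labels.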

Additional observations from a re-analysis of the deposited data

Results flagged for a closer look

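The change of Loxl2 differed between the lines: the log2 change in the Fadd line minus that in the Casp8 line was -8.38 (SE 1.47, edgeR interaction term, adjusted p = 0.022). Loxl2 had 112 counts in all in the Fadd/Mlkl knockout, against 20186 with Fadd put back, and 15222 in the Casp8/Mlkl knockout, against 12549 with Casp8 put back.

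The change of Emilin2 differed between the lines too, by -4.76 (SE 0.477, edgeR interaction term, adjusted p = 0.000821). It had 43 counts in the Fadd/Mlkl knockout, against 1134 with Fadd put back, and 1743 in the Casp8/Mlkl knockout, against 2538 with Casp8 put back.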

How the results depend on the processing

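Of the 10 genes, the number called in the Fadd line was 2. It was 4 with DESeq2, 1 with limma-voom, 1 on log2(TPM + 1), 3 with the replicate block and 2 without any single library. Over all genes 250 were called there, then 697, 200, 174 and 444 in the same order, and 103 to 181 without single libraries. The call of Fbln2 was lost with limma-voom (log2 -10.4) and on log2(TPM + 1) (log2 -2.81), where only Fbln1 was called. In the Casp8 line 0 of the 10 were called under every alternative run, with 9 of them tested from only the libraries compared. Over all genes DESeq2 called 143 there. Leaving out single libraries gave 0 to 22, leaving out both replicate 1 libraries 111, and the other settings 0 to 6. Between the knockouts 5 of the 10 were called. Leaving out single libraries gave 4 to 9, and leaving out both replicate 1 libraries of the Casp8 line gave 10. Over all genes 1718 were called, with 829 to 2558 and 3305 of 16864 in these settings. With the gene put back 1 of the 10 was called, with 4 by DESeq2 and 3 without a filter. The count was 5 from only the libraries compared, where 8 of the 10 were tested, and 3 with the replicate block. It was 1 to 2 without single libraries and 5 without both replicate 1 libraries. Over all genes these settings called 1039, 2058, 1121, 797, 1536, 301 to 2251 and 3118 in the same order. The genes tested numbered 27519 without a filter, 15445 from only the libraries compared and 16864 without both replicate 1 libraries. Of the other elastic fibre genes, 2 were called in the Fadd line, with 1 by limma-voom and 0 on log2(TPM + 1). The replicate block gave 5, leaving out single libraries 1 to 2, and leaving out both replicate 1 libraries 5, where the Casp8 line had 2. Without both replicate 1 libraries, 524 of 16864 genes were called in the Fadd line and 111 in the Casp8 line. In the Casp8 line the log2 change of Eln turned to 1.01 with limma-voom, 1.79 with the block and 6.10 without both replicate 1 libraries, and ran from -1.83 to 5.49 without single libraries. With limma-voom Fbn2 turned to -0.58 and Mfap5 to -0.28. Efemp2 was -0.01426 from only the libraries compared and -0.005997 on log2(TPM + 1), and ran from -0.137 to 0.2483 without single libraries, and Fbln2 from -0.01544 to 0.9191. In the Fadd line, without single libraries, Fbln5 ran from -1.045 to 0.08506 and Eln from -1.389 to 0.2418, so their sign is not fixed. The cause of these differences was not tested. With the block, the knockouts gave 6 and the Casp8 line 0, beside 2051 and 6 of 16396 genes. Genes with few counts (Efemp1, Eln, Mfap5) limit any statement on them, and 3 libraries a group measure the spread between cultures of 1 line each. On log2(TPM + 1) the median of all genes between the knockouts was -0.11.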
